A study of Drosophila melanogaster with 18 samples.

Results

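The piRNA pathway silences transposons in the Drosophila germline, and the 35 genes described here encode its Argonaute proteins, the factors that make their small guide RNAs and the factors that silence transposon loci in the nucleus. The 35 genes were taken as a list of symbols by a rule that uses no measured value, although the list was drawn up with earlier results of these data known. All 35 were found among the 14237 genes of the gene table, and all 35 passed the filter on low counts that left 12762 genes for testing. From textbook knowledge of the ovary they were split into 15 genes expressed in germ cells only, 13 genes of germ cells and somatic follicle and escort cells, 5 genes expressed in most tissues, the soma-restricted gene fs(1)Yb, and papi, which was left unassigned.

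RNA was sequenced from ovaries of newly eclosed females with about 100 pairs of ovaries pooled for each of 18 libraries. The wild-type reference was 7 libraries from a pair of strains, Canton S (CS, 4 libraries) and yw (3 libraries). The emerin mutants were 2 libraries each of G/PI and G/PK, which pair null alleles of Ote, the gene for the nuclear lamina protein emerin, in the yw background. The G allele carries a transposon insertion, PK a stop codon and PI an amino acid substitution, and females lack emerin in somatic cells as well as in germ cells. In 2 baf GLKD libraries a nos>gal4 driver expressed a short hairpin RNA against baf in germ cells, so that the soma kept BAF, a chromatin and lamina partner of emerin. Their control was 2 nosgal4 libraries that carried the driver alone. In 3 chk2 emerin libraries the emerin G/PK genotype was combined with a pair of mutant alleles of lok, the gene for the checkpoint kinase Chk2. No mutant of Chk2 alone was analysed here, and no G/PI genotype was combined with Chk2 loss. By the labels, flies of the knockdown were raised at 25 °C and those of the other groups at room temperature, whereas the methods text names a single temperature for all crosses. If the labels hold, temperature and knockdown cannot be told apart in that comparison.

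Piwi-interacting RNAs guide Argonaute proteins of the Piwi clade to complementary transcripts. In germ cells, long precursors transcribed from heterochromatic clusters are cut in perinuclear nuage, where Aub and AGO3 slice cluster and transposon transcripts in turn, and on the surface of mitochondria, where Zuc cuts phased guides for Piwi. Loaded Piwi enters the nucleus and directs heterochromatin formation on transposon copies. Somatic cells of the ovary run a simpler version that uses Piwi but neither Aub nor AGO3.

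Libraries held between 18138657 and 28372959 counts, with a median of 23468848. In 7 libraries (CS 1 and 2, yw 1 and 2, G/PI 1, nosgal4 1 and baf GLKD 1) the transcript tables hold totals 7.42 to 18.9 times smaller than those of the gene table, whereas both match in the other 11, so values within these sets of libraries are given beside the main results. Expression is given as CPM, each count divided by its TMM-scaled library size. Wild-type libraries held 76.6 ± 8.94 CPM of Ote (SD, n = 7), which was at 11.7 to 59.0 in the 4 emerin libraries and at 21.6 to 23.1 in the 3 chk2 emerin libraries. Transcripts of lok were at 228 ± 22.0 CPM in wild type and at 14.3 to 16.02 in chk2 emerin, but they were also lower in emerin, at 55.2 to 120.7. The target of the knockdown, baf, was at 86.0 and 110.0 CPM in nosgal4 and at 66.4 and 72.5 in baf GLKD. It was also at 51.6 to 75.1 in chk2 emerin, which carries no knockdown.

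In wild-type ovaries the members spanned a wide range of levels. Levels are compared between genes in TPM, a share of all transcripts that accounts for their length. The gene for the heterochromatin protein HP1 (FBgn0003607) stood first with 334 ± 42.2 TPM (SD, n = 7), and its lowest library was above the highest of vas, the next gene. The germline RNA helicase gene vas was at 203 ± 32.3 TPM, piwi at 152 ± 37.2, the helicase gene armi at 97.4 ± 24.6, the cochaperone gene shu at 85.0 ± 16.7 and aub at 74.1 ± 10.8. From vas downwards, no member was clear of its neighbour in the order by the ranges of the 7 libraries. The median over members was 30.7 TPM. The lowest levels were those of Hen1 (12.2 ± 3.06 TPM), which methylates the ends of finished piRNAs, fs(1)Yb (9.72 ± 3.83), cuff (9.48 ± 3.66) and BoYb (8.11 ± 1.21). AGO3, at 49.2 ± 3.51 TPM, was below its ping-pong partner aub, its 7 libraries ranging from 45.1 to 54.03 against 57.0 to 90.2 for aub. The order in emerin ovaries kept the HP1 gene, vas, piwi and armi in the first 4 places. Below them del fell 13 places, tej 10, AGO3 9 and aub 8, while nxf2 rose 13, egg 11, and tud and fs(1)Yb 10 each.

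**Figure D1:**
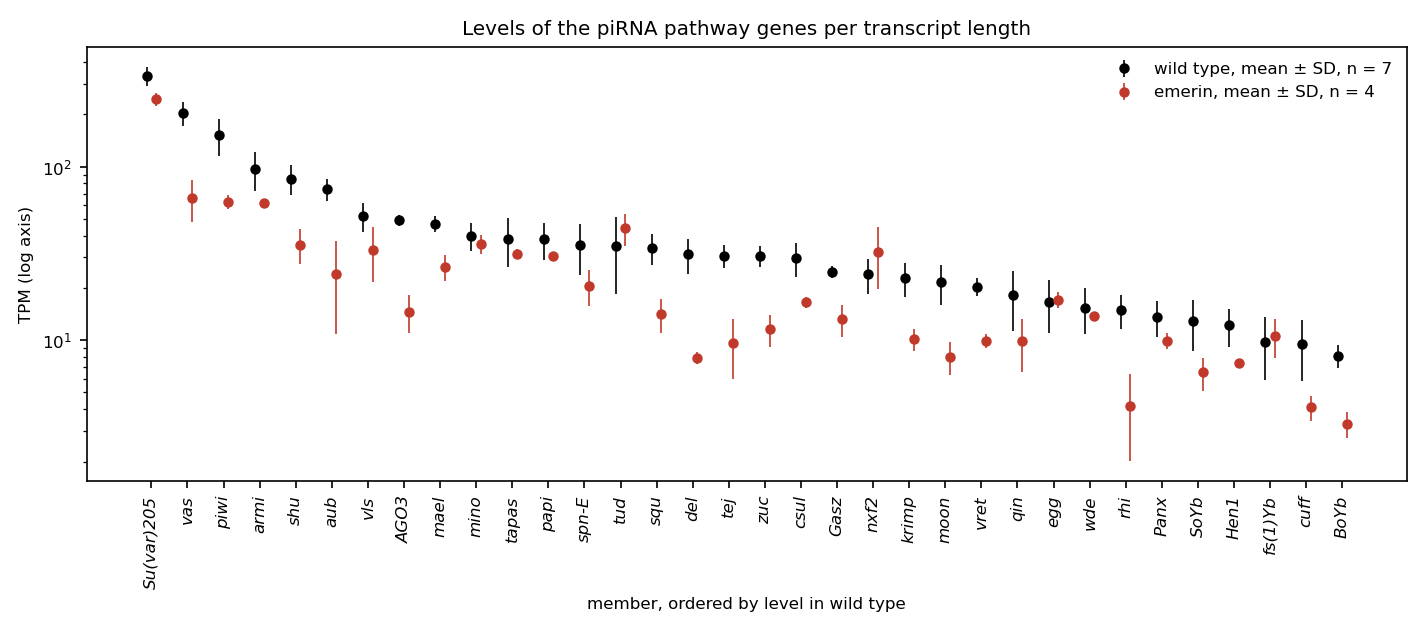
Mean TPM of 34 members in wild type (black, n = 7 libraries) and emerin (red, n = 4 libraries) on a log axis, with SD as bars and members ordered by their wild-type level. The order of the first 4 members was the same in both groups, and del, tej, AGO3 and aub lost the most places in emerin.

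Nearly the whole pathway was lower in emerin mutant ovaries. Of the 35 members, 31 were lower in emerin than in wild type by edgeR's quasi-likelihood test (adjusted p under 0.05), against 26.6% of all genes tested. None was called higher, by edgeR, by an unadjusted p under 0.05 (4000 of all 12762 genes) or by DESeq2, where 28.3% of all genes were called higher by edgeR. The median log2 fold change was -1.19 over the members and 0.12 over all genes. Of the members, 25 were called lower by at least 2-fold, against 1081 of all 12762 genes. By class, 14 of 15 germline-only genes were lower with a median of -1.66, 12 of 13 genes of soma and germline with a median of -1.17, and 4 of 5 broadly expressed genes with a median of -0.82. The 4 members not called were tud, nxf2, egg and fs(1)Yb. In bulk ovaries, fewer germ cells and less RNA per germ cell cannot be told apart.

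**Figure D2:**
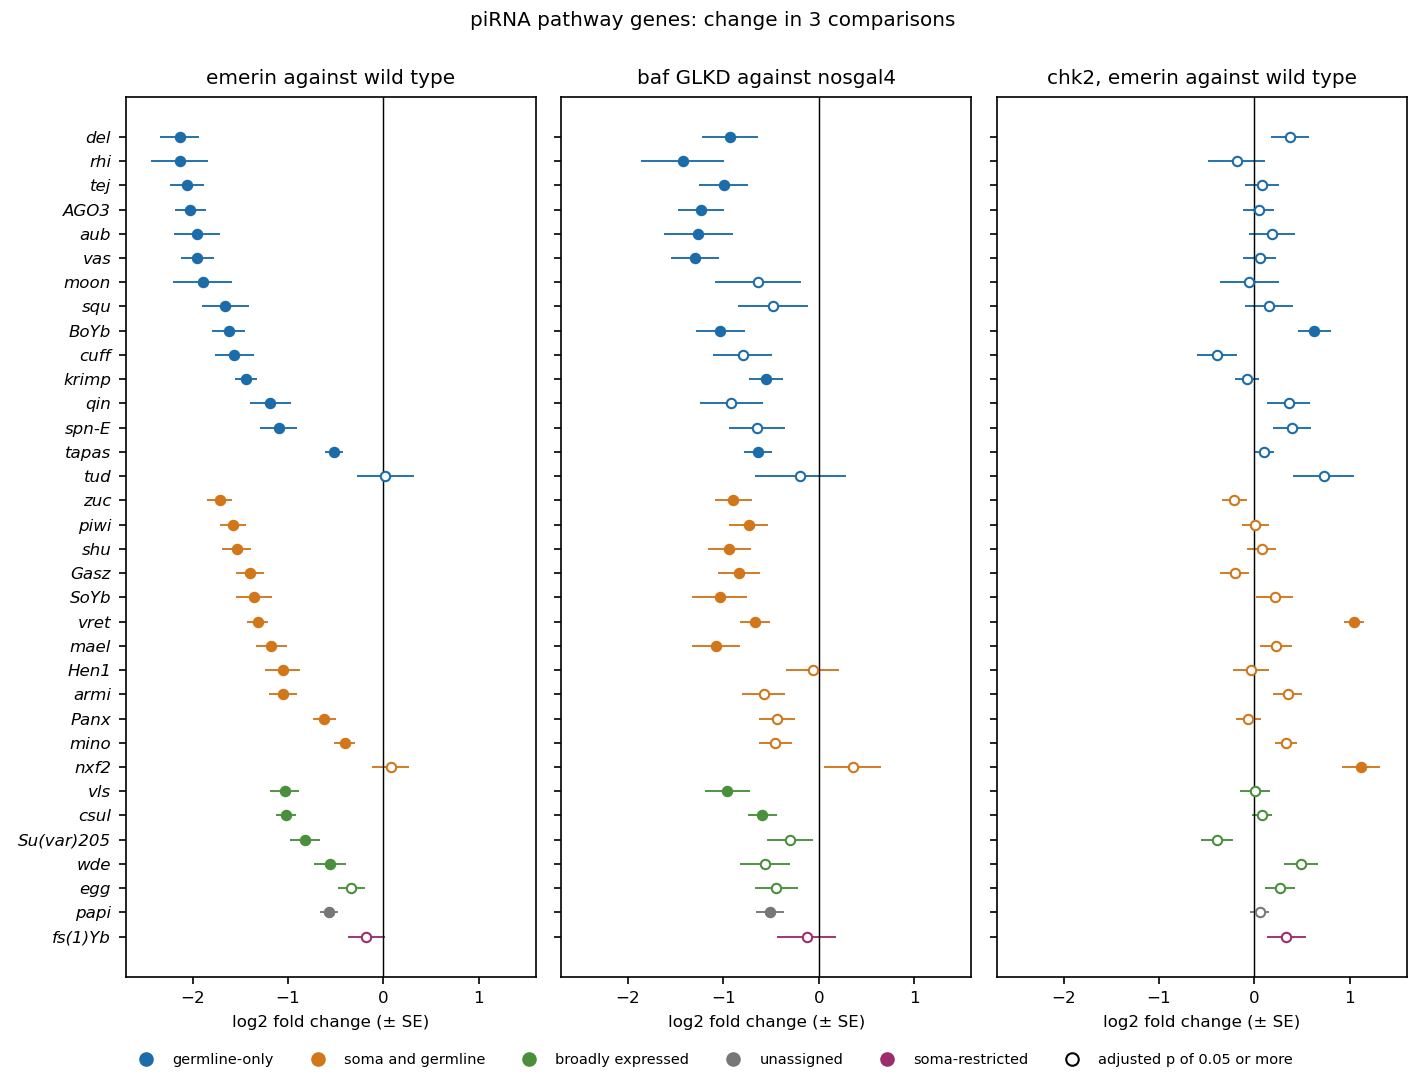
Log2 fold change with SE of 34 members (rows, grouped by colour into expression classes and ordered by the emerin change) in emerin against wild type, baf GLKD against nosgal4 and chk2 emerin against wild type. Filled points passed an adjusted p of 0.05 in edgeR's test, which 30, 19 and 3 of the members shown did, and open points did not.

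The 3 Piwi-clade Argonautes were all lower in emerin. Expression of piwi, the nuclear Argonaute of both germ cells and soma, ranged from 392.5 to 647 CPM with a median of 507 in the 7 wild-type libraries. In emerin it was at 200.1 and 147 CPM in G/PI 1 and 2 and at 174 and 161 in G/PK 1 and 2, so that all 4 libraries lay far below the lowest wild-type library. The log2 fold change of piwi was -1.58 (SE 0.14, adjusted p = 1.68e-07 in edgeR). The chk2 emerin libraries held 544, 522 and 466.2 CPM of piwi, within the wild-type range.

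Aub, the cytoplasmic Argonaute that carries most antisense piRNAs, ranged from 191 to 279 CPM with a median of 225 in wild type. It was at 109.9 and 44.1 CPM in G/PI 1 and 2 and at 42.4 and 39.1 in G/PK 1 and 2. G/PI 1 stood apart from the other 3 emerin libraries, and all 4 were below wild type, with a log2 fold change of -1.95 (SE 0.24, adjusted p = 6.69e-06 in edgeR). AGO3, its partner in the ping-pong cycle, ranged from 107 to 211 CPM with a median of 147 in wild type. The emerin libraries were close together, at 38.7, 32.8, 42.0 and 39.5 CPM, below all wild-type libraries, with a log2 fold change of -2.02 (SE 0.16, adjusted p = 7.25e-08 in edgeR). In chk2 emerin, aub was at 271, 256 and 251 CPM and AGO3 at 186, 156 and 140, inside their wild-type ranges.

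Nuage, the perinuclear material where Aub and AGO3 meet, is built around the RNA helicase Vas and Tudor-domain proteins. Expression of vas ranged from 419 to 604 CPM in wild type, with a median of 490, and was at 186, 96.3, 126 and 104 in the emerin libraries. All 4 emerin libraries were thus well below wild type, at 25.9% of its mean fitted level (log2 fold change -1.95, SE 0.17, adjusted p = 1.89e-07 in edgeR). Part of the exons of vas (563 of 2285 bases) is shared with solo on the same strand, so some reads could belong to either gene. The same limit holds for squ with grp (223 of 1372 bases) and for SoYb with CG31875 (247 of 4909 bases). Among the Tudor-domain and helicase genes of the nuage, the log2 fold changes were -2.06 for tej, -1.44 for krimp, which bridges Aub and AGO3, -1.19 for qin, -1.10 for the helicase gene spn-E and -0.52 for tapas. That of squ, which encodes another nuage protein, was -1.66, and all 6 were called lower.

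In contrast, tud, the founding Tudor-domain gene and a scaffold of germ granules, did not pass the test, with a log2 fold change of 0.02 (SE 0.30, adjusted p = 0.957 in edgeR). Its wild-type libraries were widely spread, from 116 to 475 CPM with a median of 461, and the emerin libraries at 304, 374, 340 and 428 CPM fell inside that range. The low wild-type values were 116 CPM in yw 1, 217 in yw 3 and 276.5 in CS 3. The same libraries also held the lowest wild-type values of qin, spn-E and SoYb. The spread of the reference therefore limits the precision for tud, although its log2 fold change stayed between -0.22 and 0.42 over 34 alternatives, without a call.

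Precursor transcription in germ cells depends on a complex on cluster chromatin that Rhino anchors with Deadlock and Cutoff, together with Moonshiner, a germline paralog of a basal transcription factor. In it, del and rhi had the lowest log2 fold changes of the members. Expression of del ranged from 80.4 to 154 CPM in wild type, with a median of 93.6, and was at 34.8, 22.7, 19.4 and 20.2 in emerin, which left no overlap (log2 fold change -2.14, SE 0.20, adjusted p = 3.77e-07 in edgeR). Expression of rhi ranged from 14.9 to 36.6 CPM in wild type with a median of 19.8. It was at 8.47 and 4.62 in G/PI and at 4.77 and 2.57 in G/PK, below all wild-type libraries (log2 fold change -2.14, SE 0.30, adjusted p = 2.01e-05 in edgeR). The other genes of cluster transcription were also called lower, moon with a log2 fold change of -1.89 and cuff with -1.56.

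Between the reference strains, members were called about as often as genes in general. In CS against yw this held for 4 of 35 members, where 12.4% of all genes were called in either direction. CS was lower for moon (log2 fold change -0.96), squ (-0.80) and rhi (-0.76), and higher for fs(1)Yb (0.57). Their transcripts are 811, 1076, 1570 and 3502 bases long. The yw libraries also differed: yw 1 and yw 2 held 35.02 and 16.99 CPM of moon and 60.6 and 39.15 of squ. They held 116 and 475 CPM of the long tud (8830 bases) and 88.4 and 153 of qin (6098 bases). The short cuff (1295 bases) and vls (1310 bases) were lower in yw 1 than in yw 2. The part of transcript length in these calls was not tested. The emerin alleles are in the yw background, and members called lower numbered 32 with CS alone as reference and 31 with yw alone.

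The genes of piRNA processing on mitochondria and of end maturation were lower by a range of sizes. Expression of zuc, the mitochondrial endonuclease, ranged from 28.5 to 35.9 CPM in wild type with a median of 31.1, one of the narrowest ranges among the members. In emerin it was at 11.6, 9.49, 10.6 and 7.44 CPM, which left a wide gap to wild type (log2 fold change -1.71, SE 0.13, adjusted p = 3.91e-08 in edgeR). The log2 fold changes of the other factors of this step were -1.40 for Gasz, a mitochondrial scaffold, -1.05 for the helicase gene armi, -1.06 for Hen1, -1.54 for the loading cochaperone shu, and only -0.41 for the mitochondrial enzyme gene mino. The mino groups overlapped, and its call was lost with G/PI as the emerin group and in both fits without G/PK. Expression of papi, a mitochondrial Tudor-domain gene, ranged from 78.6 to 98.9 CPM in wild type, with a median of 92.1. In emerin it was at 70.5, 59.0, 58.7 and 57.3 CPM, lower in all 4 libraries by a small margin (log2 fold change -0.57, SE 0.09, adjusted p = 7.93e-05 in edgeR).

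The Yb family of helicase-like Tudor proteins works with the partner protein Vret. In emerin against wild type the log2 fold change was -1.62 for BoYb, which works in germ cells, -1.36 for SoYb and -1.32 for vret, all called. The soma-restricted member fs(1)Yb, which marks the Yb bodies of follicle cells, ranged from 25.3 to 51.4 CPM in wild type, with a median of 36.6. In emerin it was at 23.2 and 29.9 CPM in G/PI and at 37.8 and 38.2 in G/PK. The emerin libraries therefore overlapped wild type, and the log2 fold change was -0.18 (SE 0.19, adjusted p = 0.452 in edgeR).

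Nuclear silencing by Piwi requires Panx and Nxf2, which act together on nascent transposon RNA, and Mael. In emerin, mael (log2 fold change -1.17) and Panx (-0.62) were called lower. By contrast, nxf2 ranged from 58.9 to 96.3 CPM with a median of 75.5 in wild type and was at 52.4 and 74.0 CPM in G/PI and at 99.9 and 93.5 in G/PK. The emerin values fell on both sides of the wild-type median, and nxf2 had the highest log2 fold change of the members, 0.08 (SE 0.19, adjusted p = 0.756 in edgeR).

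Among the broadly expressed members, the histone methyltransferase gene egg ranged from 55.4 to 95.8 CPM with a median of 73.9 in wild type, against 57.6, 52.1, 62.7 and 61.1 in emerin. These values overlapped the lower part of the wild-type range, and the log2 fold change of -0.34 (SE 0.14) fell just outside the threshold with an edgeR adjusted p of 0.0556. The call of egg was gained under 14 of the 34 alternatives. The genes for its cofactor wde (log2 fold change -0.56) and for HP1 (-0.82), were called lower, as were csul (-1.02) and vls (-1.03), which together encode the arginine methyltransferase complex that marks Piwi proteins for Tudor binding. The wde groups overlapped, and its call was lost with either emerin background alone and without G/PK in the fit with no block. Expression of vls ranged from 58.2 to 85.3 CPM in wild type, with a median of 62.7, and was at 44.2, 27.5, 30.6 and 25.5 in emerin, with no overlap and an edgeR adjusted p of 3.15e-05 (SE 0.15). Exons of vls and lok overlap on opposite strands (121 of 1310 bases of vls), and the protocol does not state that strand was kept, so reads of the shared stretch cannot be assigned to one gene. Other members overlap opposite-strand genes too, among them mael with CG14451 (246 of 2152 bases).

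**Figure D3:**
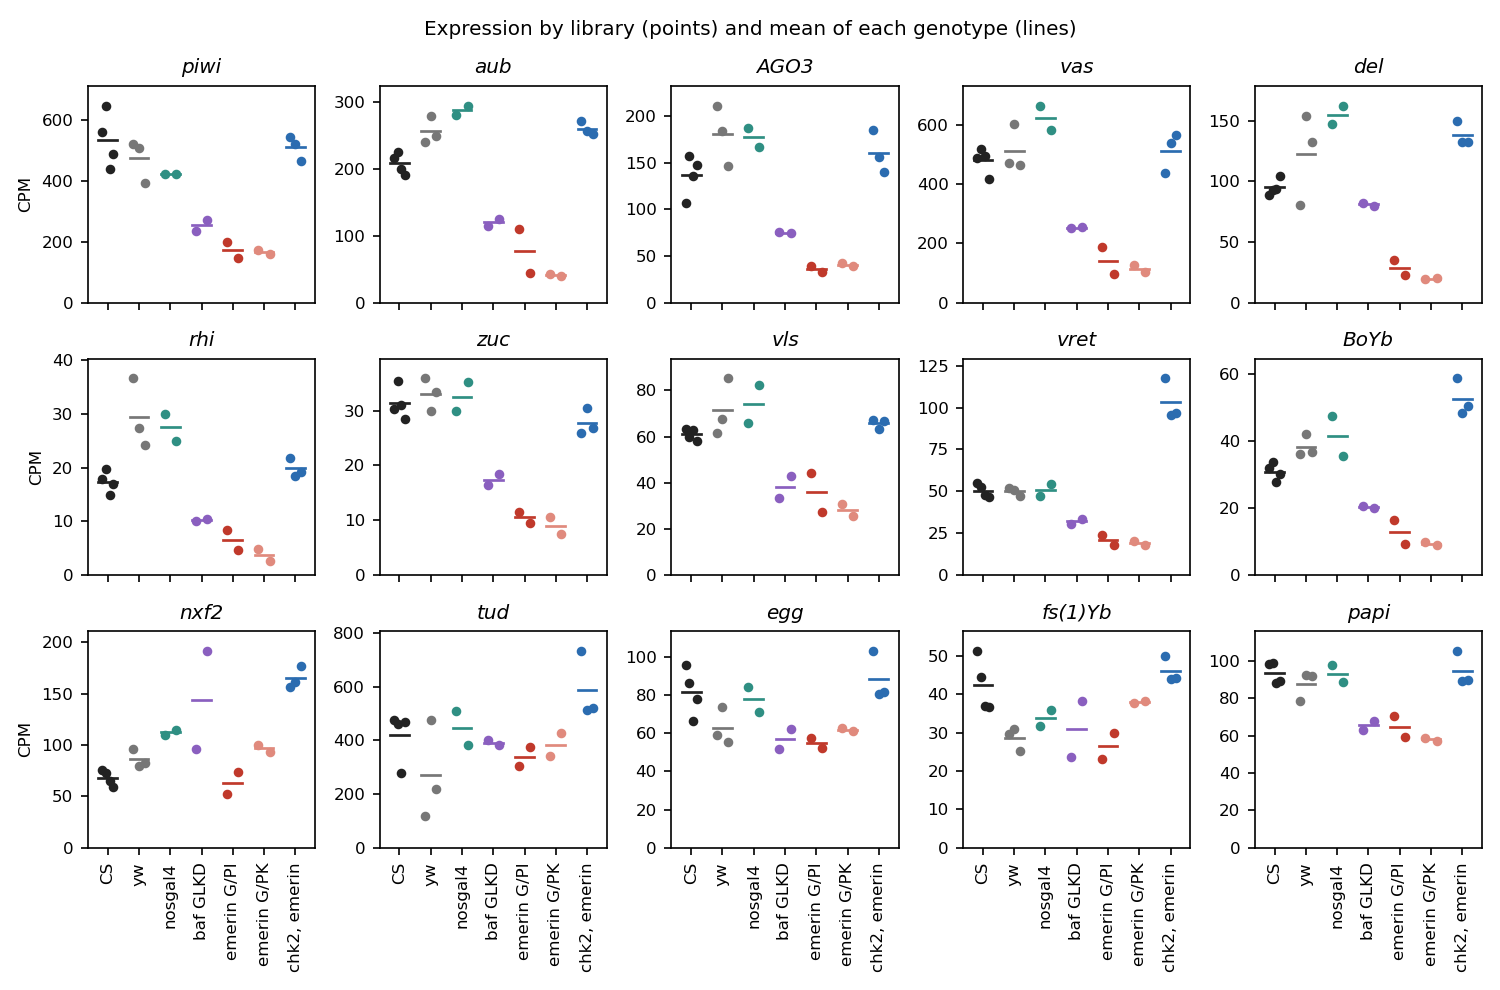
CPM of 15 members in each library (points) with the mean of each genotype (lines) on axes that start at 0. The Argonautes, vas, del, rhi, zuc and vls were lower in emerin and in baf GLKD than in their controls, whereas vret, BoYb and nxf2 lay above all wild-type libraries in chk2 emerin.

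The emerin result did not rest on 1 set of libraries or on 1 background. Within the 7 libraries with smaller transcript tables, which hold 1 emerin and 4 wild-type libraries, the median log2 difference over the members was -1.11, and all 35 were below 0. Within the other set, with 3 libraries each, it was -1.19, and 32 were below 0. With G/PI alone 29 members were called lower, and with G/PK alone 30. In G/PI against G/PK, 0 of 35 members were called by edgeR, where 0.697% of all genes were called. At an unadjusted p under 0.05, 3 members were lower and 5 higher, against 354 and 819 of all 12762 genes. The largest of these differences was that of aub, at a log2 fold change of 0.92 (SE 0.28, adjusted p = 0.226 in edgeR), and the G/PI value of aub rested mostly on G/PI 1. Of 18 other germline genes, 6 were called higher and 1 lower in G/PI.

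Most other germline genes fell with the members, whereas most markers of other cell types rose. Of 18 other genes of germ cells, 14 were called lower and 1 higher in emerin, with a median log2 fold change of -1.72. The lowest were orb (-3.15), a translational regulator of the oocyte, and pgc (-2.697), and the 1 higher was bgcn (2.05), a partner of the differentiation factor Bam. Summed over this list, the levels were 4392 to 7198 CPM in wild type, 798 to 2745 in emerin and 6327 to 7227 in chk2 emerin. All 8 muscle sheath, all 5 hemocyte and all 8 fat body markers were called higher in emerin, with medians of 2.41, 3.20 and 3.04, as were 10 of 15 markers of the ovarian soma, of which 2 were called lower. Summed levels went from 3322 to 7164 CPM in wild type to 26870 to 31840 CPM in emerin for muscle sheath, from 19.5 to 194 to 873 to 1628 for hemocytes, from 89.7 to 424 to 858 to 2390 for fat body, and from 598 to 1213 to 2190 to 2808 for ovarian soma. None of these markers was at 0 counts in any library other than en in 1 yw library. Their part in the members' result was not tested.

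Set against these germline markers, the germline-only members did not stand clear of wild type. The median log2 ratio of the germline-only members to the geometric mean of the 18 markers ranged from -0.84 to 0.18 in wild type. In emerin it was -1.06 and -0.78 in G/PI 1 and 2 and -0.42 and -0.22 in G/PK 1 and 2, so that only G/PI 1 lay outside the wild-type range. Without osk, orb and grk among the markers, both G/PI libraries lay below it, at -0.74 and -0.52 against -0.51 to 0.59. In chk2 emerin it was 0.02, 0.00 and -0.07. In baf GLKD it was -0.43 and -0.24, below the 0.08 and -0.13 of nosgal4. For members of soma and germline, the ratio ranged from -1.14 to -0.43 in wild type and was -1.41, -0.46, -0.20 and 0.33 in emerin, where G/PI 1 lay below and both G/PK libraries above the reference. In baf GLKD it was -1.16 and -1.21, below the -0.62 and -0.95 of nosgal4. For fs(1)Yb, the ratio ranged from -2.42 to -1.14 in wild type and was -1.64, -0.38, 0.19 and 0.54 in emerin, above wild type in 3 of 4 libraries.

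**Figure D4:**
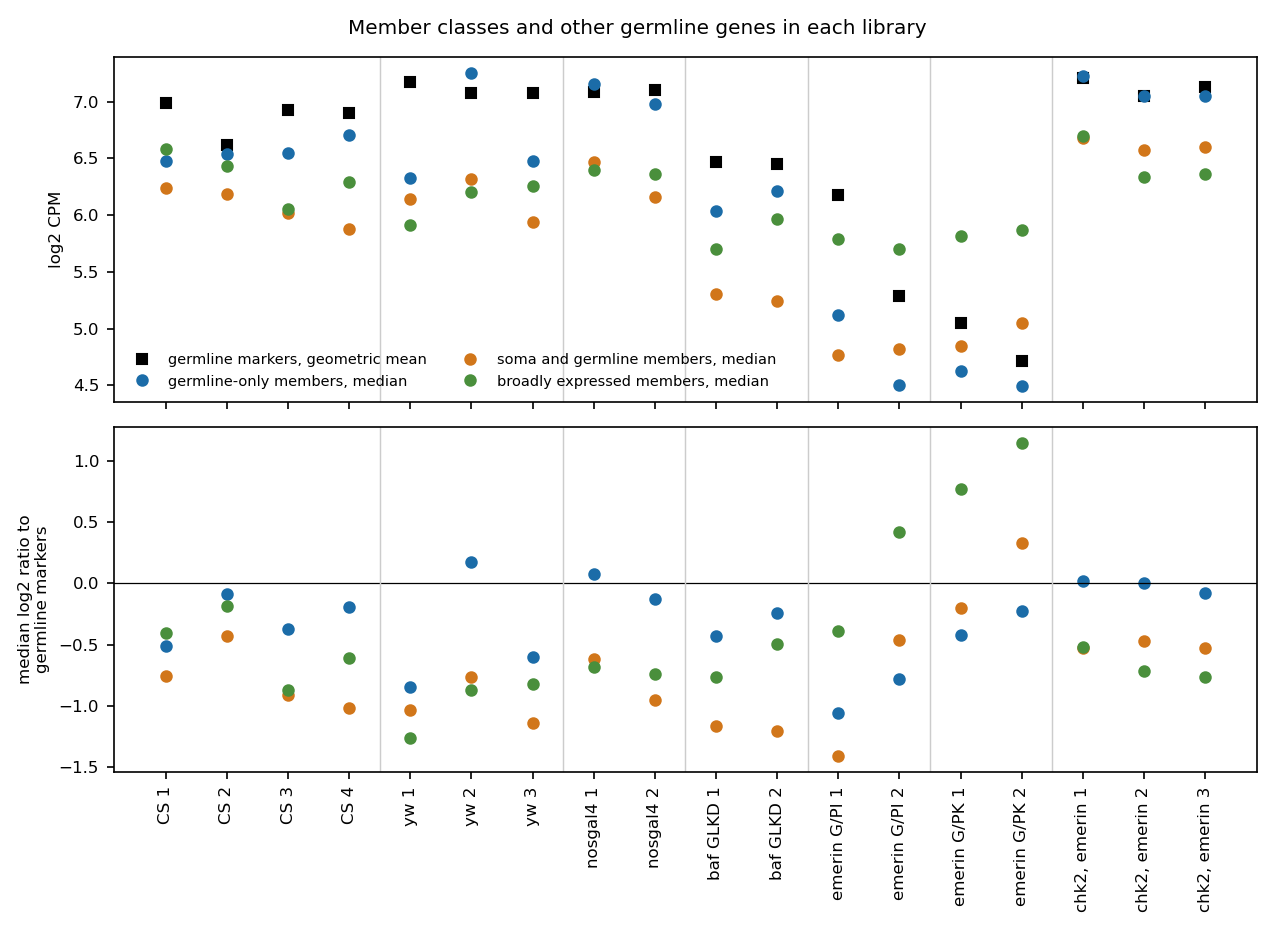
Top: median log2 CPM of germline-only, shared and broadly expressed members and log2 geometric mean CPM of 18 other germline genes (black squares) in each library. Bottom: median log2 ratio of each class to those germline genes, which for germline-only members was -0.84 to 0.18 in wild type and -1.06 to -0.22 in emerin.

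Members were also lower after knockdown of baf in germ cells. In baf GLKD against nosgal4, 20 of 35 members were called lower by edgeR, against 8.28% of all genes. None was higher, at an unadjusted p under 0.05 (2594 of all 12762 genes) or in DESeq2, where 13.3% of all genes were called higher by edgeR. DESeq2 called 21 lower, with no share of all genes given for it. Over the members the median of the log2 fold changes was -0.67, and it was 0.11 over all genes. Called lower were 9 of 15 germline-only members (median -0.92), 8 of 13 of soma and germline (-0.73), 2 of 5 broadly expressed, and papi. With 1 library left out, 10 and 4 members were called without nosgal4 1 or 2, and 2 and 9 without baf GLKD 1 or 2. Such a fit leaves 1 library in an arm, which is assumed to vary like the other groups. No share of all genes is given for it, so lost calls of members cannot be told from lost calls in general. Scaling by library size alone left 12.

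Each Argonaute was lower in both knockdown libraries. Expression of piwi was 421.5 and 423 CPM in nosgal4 and 236 and 272 in baf GLKD (log2 fold change -0.73, SE 0.21, adjusted p = 0.0192 in edgeR). Expression of aub was 280 and 294 CPM in nosgal4 and 114 and 125 in baf GLKD (log2 fold change -1.26, SE 0.36, adjusted p = 0.0213 in edgeR). For both genes the knockdown libraries lay far below the controls, but the calls were lost when any 1 of the 4 libraries was left out. The log2 fold changes in those 4 fits were -0.86 to -0.69 for piwi and -1.36 to -1.23 for aub. AGO3 was at 188 and 167 CPM in nosgal4 and at 75.9 and 74.3 in baf GLKD, with log2 fold change -1.24 (SE 0.24, adjusted p = 0.00272 in edgeR). The AGO3 call held in all 30 alternatives run for this comparison.

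The lowest fold changes were again in germline-only genes. The log2 fold change was -1.43 for rhi, with 29.96 and 25.04 CPM in nosgal4 and 10.04 and 10.4 in baf GLKD, and -1.30 for vas, with 665 and 583.5 CPM against 252.5 and 254.5. Both knockdown libraries were below both controls for each gene, and adjusted p in edgeR was 0.0292 for rhi and 0.00282 for vas. The call of vas held in all 30 alternatives and that of rhi in 25. The rhi call was lost only in fits with 1 library in an arm, and its log2 fold changes over the alternatives were -1.58 to -1.25. Expression of del was 148 and 162.5 CPM in nosgal4 and 82.1 and 80.1 in baf GLKD (log2 fold change -0.94), and that of zuc 29.9 and 35.1 against 16.4 and 18.5 (-0.90). Also called lower were tej (-0.998), BoYb (-1.03), tapas (-0.64), krimp (-0.56), mael (-1.08), SoYb (-1.04), shu (-0.94), Gasz (-0.84), vret (-0.67), vls (-0.96), csul (-0.59) and papi (-0.51). These calls held in 20 (krimp) to 28 (shu and vret) of the 30 alternatives.

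The 15 members that did not pass the test in baf GLKD included the 4 not called in emerin. Their log2 fold changes were -0.19 for tud, -0.13 for fs(1)Yb, -0.44 for egg and 0.35 for nxf2. The baf GLKD libraries of nxf2 differed from each other, at 95.6 and 192 CPM against 109.9 and 114.9 in nosgal4, and those of fs(1)Yb were at 23.7 and 38.2 against 31.7 and 35.9. For the germline-only genes qin (-0.92), cuff (-0.80), spn-E (-0.65), moon (-0.64) and squ (-0.48), both knockdown libraries were lower than both controls without a call. The other values were -0.58 for armi, -0.57 for wde, -0.46 for mino, -0.44 for Panx, -0.30 for the HP1 gene and -0.06 for Hen1.

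Within the pair of libraries with smaller transcript tables, baf GLKD 1 and nosgal4 1, the median log2 difference over the members was -0.75, and it was -0.69 within the other pair. Germline markers were called lower for 3 of 18 (median -0.72), their summed levels being 6567 and 6984 CPM in nosgal4 and 2912 and 3093 in baf GLKD. Muscle sheath markers were called higher for 6 of 8, hemocyte markers for 5 of 5, fat body markers for 8 of 8 and ovarian soma markers for 8 of 15. Their summed levels in nosgal4 against baf GLKD were 2834 to 3943 against 13980 to 16270 CPM, 15.7 to 26.7 against 444.6 to 702, 105 to 108 against 850.5 to 1107, and 523 to 828.8 against 1656 to 1996. Their part in the members' result was not tested. In nosgal4 against wild type, 0 of 35 members were called by edgeR, where 0.196% of all genes were called. At an unadjusted p under 0.05, 0 members were lower and 4 higher, against 858 and 584 of all 12762 genes. Marker medians in that comparison were -1.80 for hemocytes, -1.29 for fat body, -0.68 for muscle sheath and -0.61 for ovarian soma, with 0 of these markers called and 4 of 5, 3 of 8, 5 of 8 and 3 of 15 lower at an unadjusted p under 0.05.

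Whether the emerin and baf GLKD effects differed was tested directly. By edgeR 0 of 35 members differed, against 0.047% of all genes. At an unadjusted p under 0.05 there were 15 with the lower effect in emerin and 0 with the lower effect in baf GLKD. At the same threshold, these numbers were 583 and 414 among all 12762 genes tested. The median difference was -0.52 over the members and -0.10 over all genes. It was -0.87 over the 18 germline markers, of which 7 were lower at an unadjusted p under 0.05 and 0 were called, and their part in the members' differences was not tested. DESeq2 called 3 members, krimp, piwi and zuc, and no share of all genes is given for it. The log2 differences were -0.88 (SE 0.21) for krimp, -0.84 (SE 0.24) for piwi and -0.82 (SE 0.23) for zuc, with adjusted p in edgeR of 0.214, 0.324 and 0.307. Without G/PI 1, edgeR called 2 members. Several members had nearly equal effects in both, among them tapas (difference 0.12, SE 0.18), papi (-0.06) and fs(1)Yb (-0.05).

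In chk2 emerin ovaries no member had all libraries below the range of wild type. All 3 libraries lay inside that range for 14 of the 35 members and above it for 4, and the other 17 had some libraries outside it. No share over all genes is given for these counts, so they cannot be told from those of genes in general. In chk2 emerin against wild type, which uses the same reference libraries as emerin, 0 of 35 members were called lower by edgeR or DESeq2, where 4.76% of all genes were called lower by edgeR. At an unadjusted p under 0.05, 2 members were lower, against 1989 of all 12762 genes. Over the members the median was 0.08 on the log2 scale and -0.07 over all genes. The members lowest in emerin were at 0.37 (SE 0.20) for del, -0.18 (SE 0.30) for rhi, 0.08 (SE 0.18) for tej and -0.21 (SE 0.13) for zuc. For del, the libraries held 150.1, 132 and 133 CPM, for rhi 21.8, 18.4 and 19.2, and for zuc 25.9, 30.5 and 26.8, of which only those of zuc reached below the wild-type range. For vas they held 436, 539 and 564.5 CPM, and for vls 67.2, 63.2 and 67.0, inside the wild-type ranges of both. Low values that did not pass the test included those of cuff (-0.39) and the HP1 gene (-0.39).

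Of the 35 members, 3 were called higher in chk2 emerin than in wild type, where 2.82% of all genes were called higher by edgeR. They were nxf2, vret and BoYb. Expression of vret, a Tudor-domain partner of Armi in piRNA loading, ranged from 46.4 to 55.0 CPM in wild type with a median of 50.5 and was at 117.5, 95.5 and 96.8 in chk2 emerin. All 3 lay above the wild-type range, whereas the 4 emerin libraries, of which the highest held 23.99 CPM, lay below it, and the log2 fold change against wild type was 1.04 (SE 0.10, adjusted p = 4.7e-05 in edgeR). For nxf2, the chk2 emerin libraries were at 156, 161 and 177 CPM, above all wild-type, emerin and nosgal4 libraries but below baf GLKD 2, with a log2 fold change of 1.12 (SE 0.20, adjusted p = 0.00453 in edgeR). Expression of BoYb ranged from 27.7 to 42.1 CPM in wild type, with a median of 33.9, and was at 58.7, 48.4 and 50.5 in chk2 emerin against 16.3, 9.18, 9.73 and 9.01 in emerin. The chk2 emerin libraries of BoYb lay above the reference, with a log2 fold change of 0.63 (SE 0.17, adjusted p = 0.0379 in edgeR), but this call held in 17 of 32 alternatives. The calls of vret and nxf2 held in all 32.

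Expression of tud was also high in chk2 emerin, at 734, 514 and 520 CPM against at most 475 in wild type, with a log2 fold change of 0.73 (SE 0.32) that did not pass the test (adjusted p = 0.163 in edgeR). DESeq2 called 5 members higher, adding mino and wde, and no share of all genes is given for it. The soma-restricted fs(1)Yb was at 49.98, 43.97 and 44.3 CPM (log2 fold change 0.34), inside the wild-type range. Those of egg were at 80.6 to 103.5 CPM (0.27) and those of papi at 89.2 to 105.5 (0.06), and only the highest library of each lay above that range. With yw alone as wild type, fs(1)Yb (adjusted p = 0.0353 in edgeR), egg (adjusted p = 0.0438) and tud (adjusted p = 0.04915) were called higher, and BoYb lost its call. For fs(1)Yb, egg and tud, all 3 chk2 emerin libraries lay above the 3 yw libraries. The transcripts of these genes are 3502, 3937 and 8830 bases long, and the part of transcript length in these calls was not tested. Germline markers were called in 0 of 18 by edgeR, with 1 lower and 1 higher at an unadjusted p under 0.05, and had a median of 0.21. Ovarian soma markers were called in 0 of 15 and hemocyte markers in 0 of 5, with 2 and 1 lower at an unadjusted p under 0.05, while 1 of 8 muscle sheath and 1 of 8 fat body markers were called lower. Their summed levels were 793 to 1230, 54.3 to 90.2, 4278 to 5455 and 146 to 195 CPM. All 3 chk2 emerin libraries are among the 11 with matching transcript tables, and against the 3 wild-type libraries of that set alone the median over the members was 0.24.

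Compared directly, 32 of 35 members were lower in emerin than in chk2 emerin, where 22.7% of all genes were called lower. None was higher, also at an unadjusted p under 0.05 (3955 of all 12762 genes) and in DESeq2. This contrast shares the emerin libraries with the first one. The median log2 fold change was -1.40 over the members and 0.25 over all genes. The lowest values were -2.51 (SE 0.23) for del, -2.36 (SE 0.12) for vret, -2.25 (SE 0.20) for BoYb, -2.14 (SE 0.20) for tej, -2.14 (SE 0.28) for aub and -2.07 (SE 0.18) for AGO3. For nxf2, which did not pass the test against wild type in emerin, it was -1.04 (SE 0.23, adjusted p = 0.0013 in edgeR). The 3 members not called were tud (-0.71), fs(1)Yb (-0.51) and the HP1 gene (-0.43). In this contrast 16 of 18 germline markers were called lower and 1 higher (median -1.78), and 8 of 8 muscle sheath, 5 of 5 hemocyte, 8 of 8 fat body and 12 of 15 ovarian soma markers were called higher. Their part in the members' result was not tested. With G/PK alone as the emerin group, the genotype that the double mutants carry, 31 members were called lower.

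Of 19 other genes linked to the pathway, 16 were called lower and 0 higher by edgeR in emerin (also 0 at an unadjusted p under 0.05), with a median log2 fold change of -0.63. The lowest were Boot (-2.28), which works in export of cluster transcripts, and kipf (-1.65), which recruits Rhino to clusters, and the highest of those called were Su(var)2-10 (-0.46) and tho2 (-0.48). In baf GLKD 10 of the 19 were called lower (median -0.56), and in chk2 emerin 3 were called higher (median 0.09), Stip1 (0.41), tho2 (0.46) and Mi-2 (0.68). Of 11 genes of the microRNA and siRNA pathways, which are active in somatic and germ cells, 6 were called lower and 2 higher in emerin, with a median of -0.64. The lowest were Nbr (-1.02) and pasha (-0.71), and the 2 higher were AGO2 (0.58) and loqs (0.95). In baf GLKD 4 of the 11 were called lower, and in chk2 emerin 2 were called higher, Dcr-1 (0.74) and drosha (0.51).

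By chromosome arm, 10 members lie on 2L, 13 on 2R, 6 on 3L, 4 on 3R and 2 on X in the BDGP6.54 annotation. There piwi and aub lie near each other on the same strand of 2L, and both were lower in emerin and in baf GLKD.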

How the data were processed

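RNA was enriched for poly(A), and paired reads were trimmed with Trim Galore (0.6.6 per the submitters' notes) and assigned to BDGP6.32 transcripts with kallisto (0.46.1). The authors combined transcripts into genes with tximeta. Per the file itself, the deposited gene table gives whole, unscaled estimated counts for 14237 genes. For each transcript the deposited tables list an estimated count, a TPM value and an effective length (another quantity, in bases). TPM was used for levels between genes only. No column of another series was found. The paper counts 3 CS isolates, and all 4 libraries labelled CS were used.

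Counts were fitted with edgeR 4.0.16 (R 4.3.3, limma 3.58.1) after TMM scaling, with genes under 10 counts over all 18 libraries left out (1475 genes). The fit had 1 coefficient for each of wild type, emerin, nosgal4, baf GLKD and chk2 emerin, or for each of 7 genotypes where backgrounds or strains were compared. A gene was called at p under 0.05 after Benjamini-Hochberg adjustment over 12762 genes. SEs are the log2 fold change divided by the root of its F statistic. Libraries of a genotype differed by more than sampling noise (chi-square per degree of freedom 16.4 to 204), so none is a copy. The procedure was tested on simulated data. The alternatives were DESeq2 1.42.0, other scalings, filters, inputs, references and backgrounds, a length trend correction, the library set as a factor, a replicate block, and each library left out. Using the 11 libraries with matching tables alone, and the fit without the block, were chosen after seeing the data. Shares of all genes called are given for the main edgeR fits only, not for the alternatives.

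The members, the marker lists and the expression classes were chosen with earlier results of these data known. Values in every library are given for the Argonautes, vas, fs(1)Yb, papi, the members with the highest and lowest emerin fold change of each class, and members called in chk2 emerin or in the difference of effects. Those of rhi were added after its values were seen. Of each other list at most 4 called genes were named, the highest and the lowest fold changes. Of the list genes, 3 matched no row. Columns of the G/PK libraries carry numbers that do not match their labels, so their numbers 1 and 2 are names only. Symbols and chromosome arms are from BDGP6.54, whose name differs from that of the annotation the authors used, so no coordinates are given. Sequences were not used here, and a planned description of promoter motifs was not run. The values of 1 member are not reported here, although it stays in all counts and medians.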

Additional observations from a re-analysis of the deposited data

Results flagged for a closer look

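In a group of 4 to 10 libraries, a value was singled out when its gap to the nearest other library was large for the range of the group, which chance gives in about 1 in 20 groups. Of 70 groups of member values checked, 7 met this. In emerin, G/PI 1 stood above the other 3 libraries for aub (109.9 CPM), tej (23.3 CPM), papi (70.5 CPM) and BoYb (16.3 CPM). The log2 geometric mean CPM of the germline markers was 6.17 in this library and 4.72 to 5.29 in the other 3, and its part in these values was not tested. In wild type, yw 1 stood above the other 6 libraries for moon (35.02 CPM) and Hen1 (31.8 CPM), and yw 3 for vls (85.3 CPM). The transcripts of moon and Hen1 are 811 and 1573 bases long, and the part of transcript length in these values was not tested. No member differed between the emerin and baf GLKD effects past an adjusted p of 0.05 in edgeR's test.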

How the results depend on the processing

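Of 4480 comparisons of a member's result with an alternative setting, 4308 kept direction and call, 108 lost the call, 64 gained one and 0 were called with the opposite sign, while 105 changed sign without a call in either setting. With 1 library left out, members called lower ranged from 31 to 32 in emerin, from 2 to 22 in baf GLKD and from 32 to 34 in emerin against chk2 emerin, members called higher in chk2 emerin from 2 to 4 and lower 0 in each case, and members that differed between the emerin and baf GLKD effects from 0 to 2. In baf GLKD, 12 were called lower with library size only, 10 in the second library set only and 7 with at least a 2-fold change. In chk2 emerin, 5 were called higher with DESeq2, with the library set as a factor, with yw only as wild type and in the second library set only. For the difference of effects, 3 were called with DESeq2, 1 with CS only and 1 in the second library set only. The causes were not tested, although the smaller set has fewer libraries.

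Same-numbered libraries of chk2 emerin and CS deviated together (correlations 0.53, 0.41 and 0.34). So did those of nosgal4 with CS (0.28 and 0.63) and with chk2 emerin (0.37 and 0.41). Those of chk2 emerin and yw did not (-0.05, -0.04 and 0.17). Those of baf GLKD had negative correlations with CS (-0.46 and -0.08) and with chk2 emerin (-0.30 and -0.27). Those of CS were at -0.02, 0.39 and 0.43 with yw and at 0.39 and 0.09 with G/PI. Libraries with different numbers also reached such values, at 0.62 for CS 4 with nosgal4 1 and 0.46 for CS 1 with baf GLKD 2. In a group of 2 libraries the deviations mirror each other, so their correlations are not independent. As the signs differed between groups, the numbers were not taken to pair libraries. With the replicate block, fitted on 16 libraries because the G/PK columns carry no matched number, 31 members were lower in emerin, 21 in baf GLKD and 32 in emerin against chk2 emerin, 2 were higher and 0 lower in chk2 emerin, and 0 differed between effects. Without the block the same 16 libraries gave 29, 19, 32, 2, 0 and 0. With scaling by library size, the centre of all genes on the log2 scale was 0.29 in place of 0.11 in baf GLKD and 0.39 in place of 0.25 in emerin against chk2 emerin. All 35 members passed the filter on low counts, and baf GLKD and nosgal4 have 2 libraries each, which limits their precision.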

Other observations

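The share of a member's TPM that falls on each transcript moved with the set of libraries. For vas transcript FBtr0445185 it was 21.3% and 21.8% in the CS libraries, whose transcript tables match the gene table, and 61.6% and 96.0% in those whose tables are smaller. Genotypes also varied within the matching set, from 6.23% in yw to 73.3% in a chk2 emerin library. Isoforms were therefore not compared between genotypes.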
